A study of Mus musculus with 6 samples.

Results

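Adherens and tight junction genes were examined in mouse squamous cell carcinoma (SCC) cells that lack or re-express focal adhesion kinase (FAK), a tyrosine kinase of integrin adhesions. The genes were given by name, with no threshold on their values: the cadherins Cdh1 and Cdh3, the catenin Ctnnb1, Epcam, the scaffold gene Tjp1, occludin (Ocln) and the claudins Cldn1, Cldn4 and Cldn7. Of 10 genes given, 9 had a row among the 17204 genes of the table, and Cdh2 was not analysed here.

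The tumors arose in K14CreER FAKflox/flox mice of the FVB strain after DMBA/TPA treatment of the skin, so the Cre recombinase was driven by the keratin 14 promoter of basal keratinocytes. The SCC FAK-/- line is 1 clone, isolated after 4-hydroxytamoxifen deleted the floxed gene. The SCC FAK-WT line was made from that clone by retroviral re-expression of wild-type FAK. Both lines therefore share the deletion, and transduction and hygromycin selection cannot be told apart from FAK itself. RNA from 3 samples of each line was hybridized to Affymetrix arrays, 1 array per sample. The design text calls the samples biological replicates, but it does not say how they were separated. The p-values weigh the difference between the lines against a spread estimated from these samples. With 1 clone and 1 line made from it, they do not cover variation between independent clones or transductions.

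Adherens junctions hold neighboring epithelial cells together through cadherins, transmembrane proteins that bind each other across the cell gap. Inside the cell, cadherins bind β-catenin, which links them by way of α-catenin to actin. Tight junctions lie closer to the apical surface and seal the space between cells, with claudins forming the barrier and pores, occludin as a companion membrane protein, and ZO-1 as the scaffold beneath. In stratified epithelia such as skin, E-cadherin and P-cadherin are both made by basal keratinocytes, and claudin-1 is needed for the barrier of the epidermis.

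No junction gene passed the test for a difference between the lines. At an adjusted p under 0.05, 0 of 9 genes passed (limma with Benjamini-Hochberg adjustment over all genes), where 1.92% of all genes did. At an unadjusted p under 0.01, again 0 of 9 passed, against 6.85% of all genes. The study's threshold has the same number, with neither the test nor any adjustment stated. At an unadjusted p under 0.05 the count was also 0. The lowest adjusted p among the 9 was 0.438, for Tjp1. With 9 genes, a count of 0 is near the background share at either threshold. The mean was lower in SCC FAK-WT cells for 7 genes and higher for 2, and the median log2 fold change of the 9 genes was -0.05, beside 0.02 for all genes. The unsigned log2 fold change was below the median of all genes, 0.14, for 5 of the 9.

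**Figure D1:**
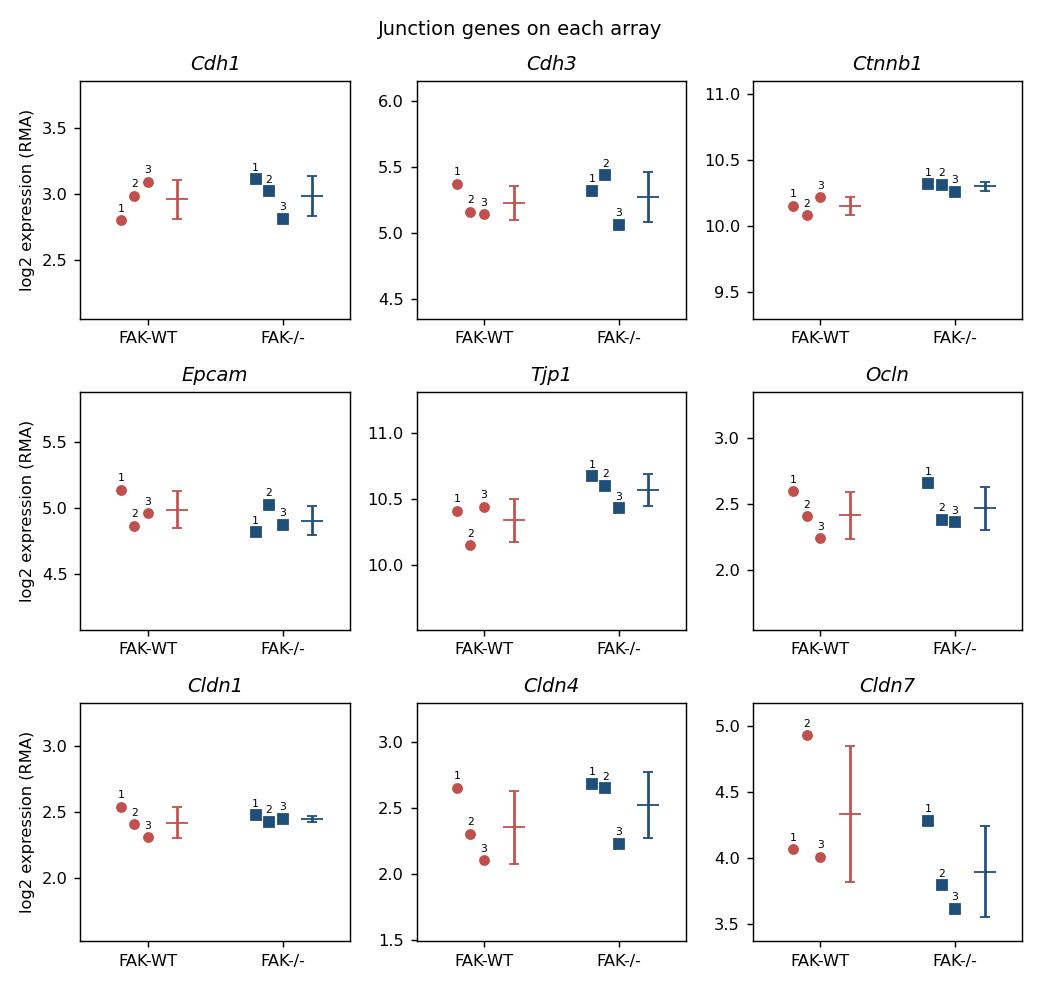
Log2 expression (RMA) of each junction gene on each array, with SCC FAK-WT as circles and SCC FAK-/- as squares, replicate numbers beside the points, and the mean ± SD (n = 3) to their right. All panels span the same range of log2 units. The lines overlap for every gene except Ctnnb1.

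Sequence upstream of the start of transcription was taken from RefSeq (GRCm38.p6) for 7 of the 9 genes, in 10 windows of 250 bases, since some genes have more than 1 start. They were searched for CACCTG, which reads CAGGTG on the other strand, the E-box form bound by the Snail and ZEB repressors, factors known for silencing epithelial junction genes. The windows of Cldn4, Epcam, 1 start of Cldn7 and 1 start of Ocln held it, 4 of 10 windows, while 17.2% of all 32851 windows in the RefSeq table did. The windows of Ctnnb1, Tjp1 and Cldn1 and the other starts of Cldn7 and Ocln did not hold it. Shown are the windows of Cldn4 and Epcam, which carry the E-box, that of the first listed start of Ctnnb1, the gene whose lines did not overlap, and that of Tjp1, the gene with the lowest adjusted p. Each runs from 5′ to 3′ and ends at the base before the start, and capitals mark the E-box on either strand.
Cldn4 (chr5:134946935-134947184, minus strand): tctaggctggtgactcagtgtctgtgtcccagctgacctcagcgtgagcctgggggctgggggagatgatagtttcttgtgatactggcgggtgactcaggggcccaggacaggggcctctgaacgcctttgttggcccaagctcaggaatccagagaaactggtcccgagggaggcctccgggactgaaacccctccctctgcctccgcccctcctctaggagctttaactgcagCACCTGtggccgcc
Epcam (chr17:87635729-87635978, plus strand): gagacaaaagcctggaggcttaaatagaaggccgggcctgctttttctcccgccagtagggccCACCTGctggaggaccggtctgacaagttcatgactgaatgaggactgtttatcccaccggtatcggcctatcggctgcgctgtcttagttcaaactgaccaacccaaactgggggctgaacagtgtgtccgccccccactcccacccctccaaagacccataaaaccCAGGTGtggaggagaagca
Ctnnb1 (chr9:120933150-120933399, plus strand): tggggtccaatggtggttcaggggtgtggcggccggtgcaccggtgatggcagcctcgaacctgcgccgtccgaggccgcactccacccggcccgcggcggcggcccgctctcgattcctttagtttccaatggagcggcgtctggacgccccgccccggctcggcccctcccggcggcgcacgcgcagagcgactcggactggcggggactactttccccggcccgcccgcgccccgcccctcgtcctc
Tjp1 (chr7:65371245-65371494, minus strand): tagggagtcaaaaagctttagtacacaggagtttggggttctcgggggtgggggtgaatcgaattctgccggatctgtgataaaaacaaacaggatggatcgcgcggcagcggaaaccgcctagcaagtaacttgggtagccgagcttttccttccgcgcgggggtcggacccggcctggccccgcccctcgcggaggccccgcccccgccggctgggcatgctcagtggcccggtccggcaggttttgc

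The E-box of Cldn4 began 14 bases before the start, and those of Epcam 187 and 19 bases before it. CpG dinucleotides numbered 35 and 43 in the windows of Ctnnb1, 22 in that of Tjp1, 14 and 22 in those of Ocln, 14 for Cldn1, 8 for Epcam, 7 for Cldn4, and 6 and 10 for Cldn7, with a median of 6 over all windows. A count of at least 20 was found in 4 of the 10 windows and in 17.9% of all windows. These are features of the reference sequence, and a match to the letters does not show that a factor binds there. The 2 windows of Ctnnb1 overlap each other, as do the 2 of Ocln. With 10 windows from 7 genes, neither count can be read as an excess over the share of all windows. Neither Cdh1 nor Cdh3 was matched to a window.

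Among the cadherins, Cdh1 (ENSMUSG00000000303) encodes E-cadherin, the defining cadherin of epithelia. The 3 SCC FAK-WT arrays read 2.80, 2.99 and 3.09 in log2 expression, and the 3 SCC FAK-/- arrays 3.11, 3.02 and 2.82. The lines covered almost the same range, with means of 2.96 ± 0.15 and 2.98 ± 0.15 (SD, n = 3 each), and the adjusted p was the highest of the 9 genes. This was a difference of -0.02 log2 units (standard error 0.13, limma adjusted p = 0.959), with a 95% interval of -0.32 to 0.28, from 1.25-fold lower to 1.21-fold higher in SCC FAK-WT cells.

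Cdh1 was also dim, with a mean over all 6 arrays that exceeded the means of only 10.9% of genes. The labels call the cells squamous cell carcinoma, and a low value of this epithelial marker was common to both lines. A probe can read low for reasons other than little RNA, and no value for the detection of a probe was given with the arrays. The keratins and other markers of squamous epithelium, and those of other cell types, could not be named in the table.

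Cdh3 (ENSMUSG00000061048) encodes P-cadherin, the cadherin that marks the basal layer of the epidermis. Log2 expression of Cdh3 was 5.37, 5.16 and 5.14 in SCC FAK-WT and 5.32, 5.44 and 5.06 in SCC FAK-/- cells. The highest and the lowest value both came from the SCC FAK-/- line, and all SCC FAK-WT values lay between them. The 3 highest arrays, replicate 1 of SCC FAK-WT cells with replicates 1 and 2 of SCC FAK-/- cells, were also the 3 highest for Cldn4. The log2 fold change was -0.05 (standard error 0.13, limma adjusted p = 0.915), with a 95% interval of -0.36 to 0.26. Cdh3 and Cdh1 lie near each other on mouse chromosome 8, with 3 RefSeq genes between them, none of which codes for a protein (0 of 3). SCC FAK-WT replicate 1 had the lowest SCC FAK-WT value of Cdh1 and the highest of Cdh3, while SCC FAK-/- replicate 3 had the lowest value of its line for both genes.

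Ctnnb1 (ENSMUSG00000006932) encodes β-catenin, which binds the tails of both cadherins and also carries the Wnt signal to the nucleus. The SCC FAK-WT samples gave 10.16, 10.08 and 10.22 in log2 expression, and the SCC FAK-/- samples 10.32, 10.31 and 10.26. It was the 1 gene of the 9 in which every SCC FAK-WT value lay below every SCC FAK-/- value, and 21.5% of all genes separated the lines without overlap in one direction or the other. Between the means lay -0.14 log2 units (standard error 0.09, limma adjusted p = 0.545), a level 1.10-fold higher in SCC FAK-/- cells.

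The replicates of Ctnnb1 were close together, with SDs of 0.07 and 0.03, and genes of like level had a median pooled SD of 0.11 where that of Ctnnb1 was 0.05. Fitted on its own variance, without moderation across genes, the unadjusted p was 0.0289 in place of 0.168, and the adjusted p 0.284. The 95% interval with moderation ran from -0.36 to 0.08 and left room for a mean 1.29-fold lower in SCC FAK-WT cells.

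Epcam (ENSMUSG00000045394) encodes an epithelial adhesion molecule of simple and proliferating epithelia that binds to claudin-7. Log2 expression of Epcam was 5.14, 4.86 and 4.96 in SCC FAK-WT and 4.81, 5.02 and 4.87 in SCC FAK-/- cells. The highest value came from an SCC FAK-WT array and the lowest from an SCC FAK-/- array, with the other 4 intermingled. The log2 fold change was 0.08 (standard error 0.12, limma adjusted p = 0.814), with a 95% interval of -0.19 to 0.36. Without SCC FAK-WT replicate 1 it was 0.0068, and without SCC FAK-WT replicate 2 it was 0.14.

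Tjp1 (ENSMUSG00000030516) encodes ZO-1, the scaffold that ties claudins and occludin to actin and that is also found at adherens junctions. Its log2 expression was 10.42, 10.15 and 10.44 in SCC FAK-WT and 10.67, 10.60 and 10.43 in SCC FAK-/- cells. Only the lowest SCC FAK-/- value, that of replicate 3, reached into the SCC FAK-WT range. The log2 fold change was -0.23 (standard error 0.12, limma adjusted p = 0.438), a mean 1.18-fold higher in SCC FAK-/- cells, with a 95% interval of -0.53 to 0.06. SCC FAK-WT replicate 2 had the lowest value of both Tjp1 and Ctnnb1. Without that array, the log2 fold change was -0.14 for Tjp1 and -0.11 for Ctnnb1.

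**Figure D2:**
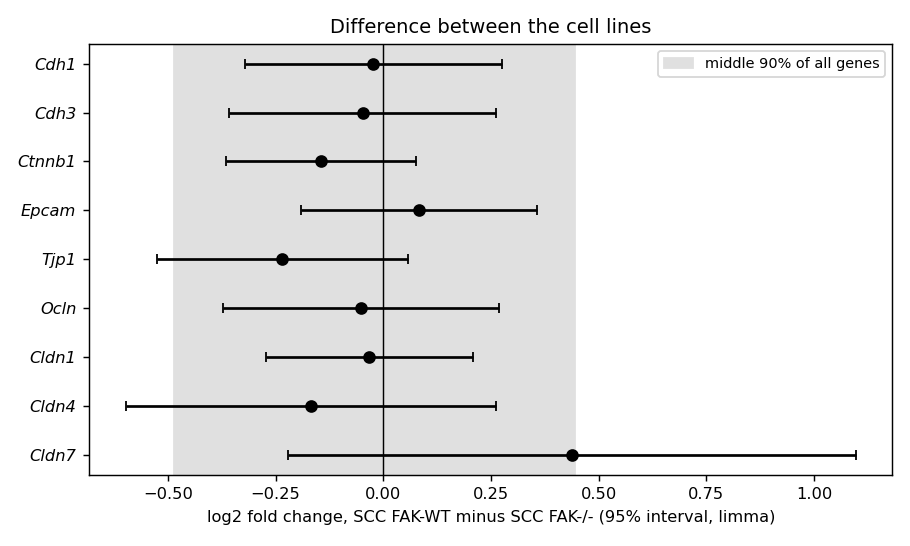
Log2 fold change of each junction gene, SCC FAK-WT minus SCC FAK-/- (points), with its 95% interval from limma, unadjusted for the number of genes. The shaded band holds the middle 90% of all 17204 genes, from -0.49 to 0.45. All 9 intervals include 0 and all 9 points lie inside the band.

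The membrane proteins of tight junctions were mostly dim on these arrays. Ocln, Cldn1 and Cldn4 had means of 2.44, 2.43 and 2.44 over all 6 arrays, below 2.88, the lowest decile of the gene means. Array values of different genes come from different probes and do not rank their RNA, but values in this range lie near the low end of what the arrays returned, where differences can be compressed.

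Ocln (ENSMUSG00000021638) encodes occludin. Its log2 expression was 2.59, 2.41 and 2.24 in SCC FAK-WT and 2.65, 2.38 and 2.36 in SCC FAK-/- cells, and the lines overlapped. The log2 fold change was -0.05 (standard error 0.14, limma adjusted p = 0.91), with a 95% interval of -0.37 to 0.27.

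Cldn1 (ENSMUSG00000022512) encodes claudin-1. Log2 expression of Cldn1 was 2.54, 2.40 and 2.30 in SCC FAK-WT and 2.47, 2.43 and 2.45 in SCC FAK-/- cells. The SCC FAK-/- values lay within the SCC FAK-WT range. Its log2 fold change was -0.03 (standard error 0.10, limma adjusted p = 0.928), and its 95% interval of -0.27 to 0.21 was from 1.21-fold lower to 1.15-fold higher in SCC FAK-WT cells.

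Cldn4 (ENSMUSG00000047501) encodes claudin-4, a barrier-forming claudin of suprabasal and simple epithelia. Log2 expression of Cldn4 was 2.65, 2.30 and 2.10 in SCC FAK-WT and 2.68, 2.65 and 2.23 in SCC FAK-/- cells. The values formed a high set and a low set that both lines shared: 1 SCC FAK-WT and 2 SCC FAK-/- arrays at 2.65 to 2.68, and the other 3 arrays at 2.10 to 2.30. Its log2 fold change was -0.17 (standard error 0.18, limma adjusted p = 0.747), with a 95% interval of -0.60 to 0.26.

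The lowest decile over all genes was also highest on these 3 arrays, replicate 1 of SCC FAK-WT cells with replicates 1 and 2 of SCC FAK-/- cells. These were 2.92, 2.90 and 2.91, beside 2.86 for SCC FAK-WT replicate 2, 2.86 for SCC FAK-WT replicate 3 and 2.83 for SCC FAK-/- replicate 3. Cldn4 ranged over 0.58 log2 units. Its deviations from its own mean were 0.215, 0.246 and 0.213 on the former 3 arrays and -0.132, -0.334 and -0.207 on the latter 3. Over the 1721 genes with means below the lowest decile, the median deviations were 0.006, 0.027 and 0.009 on the former 3. On the latter 3 they were -0.031, -0.01 and -0.042. Quantile normalization, which gives all arrays 1 distribution, left Cldn4 at 2.62, 2.67 and 2.63 on the former 3 arrays and 2.34, 2.11 and 2.26 on the latter 3 arrays. The gap between the sets was 0.34 log2 units in the deposited values and 0.28 after this step. Cdh3, which was not dim, had the same 3 arrays above the same other 3, with a gap of 0.16 log2 units in the deposited values and 0.12 after quantile normalization. In the main fit the standard error was 0.18 for Cldn4 and 0.13 for Cdh3. With the lowest decile of each array as a covariate, chosen after seeing the data, these were 0.11 and 0.09. That covariate was highest on the same 3 arrays as both genes, so it could not serve as a test of either split. The standard error rose for Cdh1 (0.127 to 0.134), Ctnnb1 (0.094 to 0.096) and Cldn7 (0.281 to 0.305). It fell for Ocln (0.136 to 0.125), Tjp1 (0.124 to 0.116) and Epcam (0.116 to 0.112), and was 0.102 in both fits for Cldn1. The part of the array distributions in either split was not tested.

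**Figure D3:**
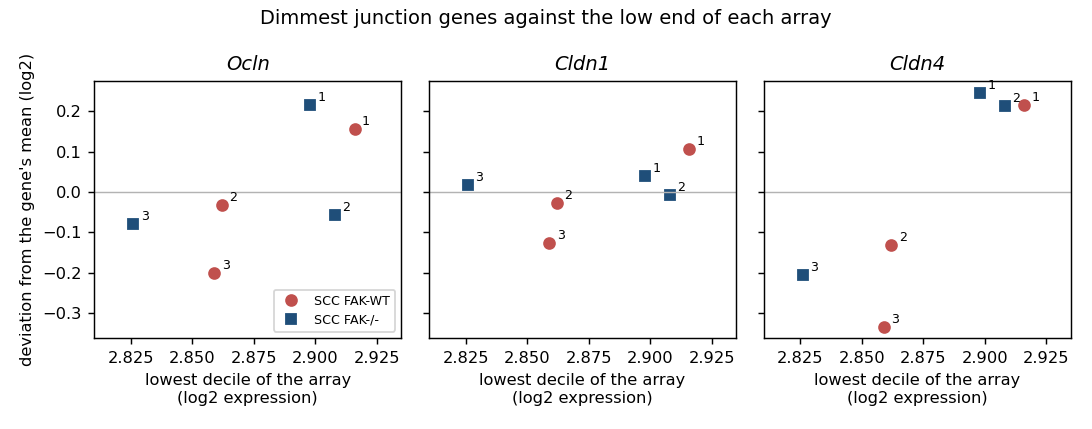
Deviation of Ocln, Cldn1 and Cldn4 from their own mean over the 6 arrays (log2 units) against the lowest decile of all genes on each array, with replicate numbers beside the points. For Cldn4, arrays of both lines lie together above 0 on the right and together below 0 on the left, and Cldn1 shows no such split.

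Cldn7 (ENSMUSG00000018569) encodes claudin-7, a claudin of the lateral membrane. It had the widest spread of the 9 genes, a pooled SD of 0.44 where genes of like level had a median of 0.17. Its log2 expression was 4.06, 4.93 and 4.0 in SCC FAK-WT and 4.28, 3.79 and 3.61 in SCC FAK-/- cells. SCC FAK-WT replicate 2 stood above every other array, and the other SCC FAK-WT values lay within the SCC FAK-/- range.

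The log2 fold change of Cldn7, 0.44 (standard error 0.28, limma adjusted p = 0.535), was the largest of the 9 in size, 1.35-fold higher in SCC FAK-WT cells, and its 95% interval ran from -0.22 to 1.10. Without SCC FAK-WT replicate 2 it was 0.14. The same array had the lowest Tjp1, Ctnnb1 and Epcam values of its line. Its interquartile range over all genes was 4.16, the widest of the 6 arrays. SCC FAK-WT replicates 1 and 3 had 3.997 and 4.13. SCC FAK-/- replicates 1, 2 and 3 had 4.07, 4.003 and 4.15, and replicate 3 of that line had the lowest Cldn7 value. The median of SCC FAK-WT replicate 2 over all genes, 5.90, was the lowest of the 6. The log2 fold change of Cldn7 was 0.47 with median centering, 0.44 with quantile normalization and 0.43 with cyclic loess. After quantile normalization SCC FAK-WT replicate 2 read 4.97 for Cldn7. A model that also held the array spread, chosen after seeing the data, gave 0.40 (standard error 0.30), and array weights gave 0.33. The cause of the high Cldn7 value on that array was not tested.

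The precision differed among the genes. The largest difference that the 95% interval allowed was 1.15-fold higher and 1.21-fold lower in SCC FAK-WT cells for Cldn1, the narrowest interval in folds after that of Ctnnb1, but 2.14-fold higher for Cldn7. For Cldn4 it was 1.51-fold lower and for Tjp1 1.44-fold lower. Changes of 2-fold in either direction lay outside the interval of every gene except Cldn7, on the scale of these arrays. That scale can be compressed for the dim genes Cdh1, Ocln, Cldn1 and Cldn4, so their intervals need not bound a change in RNA. With 3 arrays a line, the smallest two-sided p of an exact permutation test on 1 gene is 0.1, so that test was not used. The main test was the moderated limma test, which combines the spread of each gene with an estimate from all genes. A fit without moderation was run as an alternative. In cells measured in bulk, fewer cells that express a gene and less RNA per cell cannot be told apart.

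**Figure D4:**
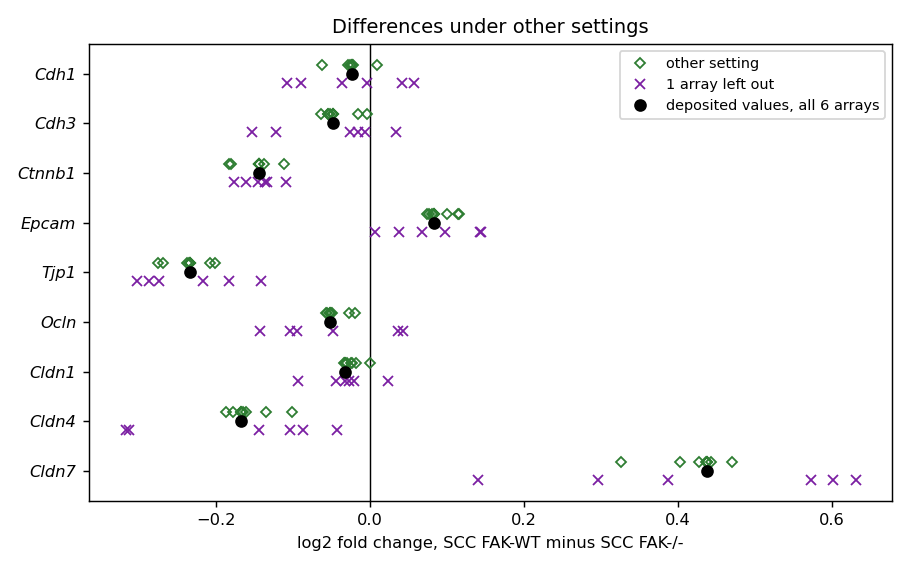
Log2 fold change of each junction gene with the deposited values and all arrays (filled circles), with other settings (open diamonds) and with 1 array left out (crosses). Cldn7 ranges from 0.14 to 0.63 and stays above 0, Tjp1 and Ctnnb1 stay below 0, and Cdh1, Cdh3, Ocln and Cldn1 fall on both sides of 0.

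The arrays were alike in level, and their medians over all genes differed by at most 0.07 log2 units. The fak gene, Ptk2, could not be named in the table, so the labels of the lines were not checked against it.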

How the data were processed

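RNA was amplified with the Ovation Pico WTA system, labeled with biotin and hybridized to Affymetrix mouse GeneChips. Probe signals were summarised by the authors to 1 value per Ensembl identifier with the affy package and Robust Multi-array Average (RMA) normalization. The deposited values lie in a range typical of log2 expression and were used as such. Which background correction, probe mapping and package version were used is not given in the sources used here; the first can change values and differences of dim genes.

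All 17204 genes were fitted, without a filter, to a model of cell line alone (limma 3.58.1, R 4.3.3, two-sided). The procedure was tested beforehand on simulated data. The simulated shifts were larger than the log2 fold change of any junction gene, so that test does not give the power at the sizes seen here. P-values were Benjamini-Hochberg adjusted over all genes. "Rose" or "fell" would have required an adjusted p under 0.05. Pooled SDs were compared with genes whose mean lay within 0.5 log2 units. The members were given by name, with no threshold on their values, but they and the lists were chosen with earlier results of these data known. Member symbols come from the request, and 9 of 9 are in the RefSeq table. That table pairs 0 of 17204 identifiers with a symbol, so the lists of other junction genes, related transcription factors and cell type markers and the fak gene were not analysed here. The rule for naming was all members with their value on every array. Alternatives covered moderation, scaling, array weights, a filter on dim genes, the replicate block, each array left out, and thresholds. The number of arrays limits the precision.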

Additional observations from a re-analysis of the deposited data

How the results depend on the processing

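Under all 18 alternatives for the number of junction genes called, 0 were called, and the lowest adjusted p of any was 0.284 (Ctnnb1, no moderation); its unadjusted p was 0.0289, and Tjp1 reached 0.049 with trend and robust moderation. The alternatives that changed only the threshold reused the main fit, so their count of 0 followed from its p-values. Tjp1, Ctnnb1, Epcam, Cldn4 and Cldn7 kept their direction under each alternative run. With each array centered on its median, Cdh1 moved to 0.0095 and Cldn1 to 0.00016. Leaving out 1 array gave log2 fold changes of -0.107 to 0.057 for Cdh1, -0.153 to 0.034 for Cdh3, 0.0068 to 0.145 for Epcam, -0.143 to 0.043 for Ocln, -0.093 to 0.023 for Cldn1, -0.32 to -0.04 for Cldn4 and 0.14 to 0.63 for Cldn7; the cause was not tested. The filter on dim genes left 4 of the 9 to test. Adding the replicate block gave 0 calls, with a lowest adjusted p of 0.525. The labels do not say whether same-numbered arrays are pairs. Over all genes, r between the deviations of same-numbered arrays was -0.0338 to 0.028, which does not settle how the samples were handled. The array spread and the lowest decile of each array as covariates were chosen after seeing the data, and gave 0 calls each. Median centering moved the median log2 fold change of all genes from 0.016 to 0.048. The planned counts over other junction genes and the fak gene were not run, because the identifiers could not be named.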
